A study of Mus musculus with 14 samples.

Results

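The genes described here are 10 mouse genes that lie outside the chromosome segment triplicated in the Ts1Cje mouse, a model of Down syndrome, and whose muscle RNA levels differed between Ts1Cje and WT. They are Rab32, Mansc1, Tpmt, Dppa5a, Ppp1r35, Atp6v1e2, Pla2g1b, Apol7a, Tbata and Nabp1, which the array lists under its older name Obfc2a. They were chosen by their genotype p-values on these same arrays, as genes with small p among the disomic genes, those present in the normal copy number. The genotype values below therefore describe that choice and carry no test. They are 10 of the 14168 genes that had a probe kept after a filter on background, and the array holds probes for 24553 gene symbols in all. Every one of the 10 has a kept probe, and together they have 18 probes, 13 of them kept.

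RNA came from skeletal muscles of mice on the C57BL/6 background. The groups were Ts1Cje extensor digitorum longus (EDL, 3 arrays), its disomic WT littermate EDL (3 arrays), Ts1Cje soleus (4 arrays) and its disomic WT littermate soleus (4 arrays). The labels name no further allele or agent, and ages and sexes are not given in the sources used here. Labelled cRNA was made from 25 ng of RNA per sample and hybridised to 1-colour Agilent arrays of 60-base probes. The labels do not tie a given EDL to a soleus of the same animal, so p-values between muscles treat all 14 arrays as separate.

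Ts1Cje mice carry an extra copy of a distal piece of chromosome 16 in all their cells, running about from Sod1 to Zbtb21. Genes inside it are present in excess, while the rest of the genome, the 10 genes included, keeps its normal copy number apart from the place on chromosome 12 where the piece is joined. The EDL is a fast muscle that works mainly by glycolysis, and the mouse soleus mixes slow oxidative fibres with fast oxidative ones. Several of the 10 genes are best known outside muscle: Dppa5a in embryonic stem cells, Atp6v1e2 in testis, Pla2g1b in pancreas and Tbata in thymus, brain and testis.

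Levels are log2 of the processed signal relative to the 75th percentile of the array, so 0 is the 75th percentile and differences are on the log2 scale. The percentile itself lay between 62.4 and 143.8 intensity units, and each array had 41.3% to 52.9% of its probes well above background. As checks of the labels, Sod1 was higher in Ts1Cje than in WT by 0.86 in the EDL and by 1.09 in the soleus, and all 14 measured genes of a list from the triplicated segment were higher in both muscles. All 9 fast fibre markers were higher and all 9 slow fibre markers lower in the EDL than in the soleus, each past an adjusted p of 0.05 in limma, and Myh4, the fast IIB myosin, stood apart by 4.28 and Myh7, the slow myosin, by -6.52. One slide held the 6 EDL arrays and Ts1Cje soleus replicate 1, and the other slide held the remaining 7 soleus arrays, so muscle and slide are nearly the same split.

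Where a gene has several probes, the deposited positions place them at different stretches of the chromosome. Which part of a transcript each probe reads was not looked up. The sequences below are the first 30 of each probe's 60 bases, with mm9 positions from the deposited files, numbered along the chromosome. They are shown because the probes of these genes did not give the same values. Tbata, on the plus strand of chromosome 10, has 5 probes, of which the 1st, the 2nd and the 5th were kept and the 1st represents the gene.
Tbata probe 1, chr10:60642162-60642221: attcttatcccgctgtctgatggggatgcc
Tbata probe 2, chr10:60643058-60643117: ctcagacacctggaggaagaaactgaagga
Tbata probe 5, chr10:60651527-60651586: gcctccaacagtactaaataaaatcctgcc
Tpmt, on the minus strand of chromosome 13, has 2 kept probes, and the 1st represents the gene.
Tpmt probe 1, chr13:47120764-47120823: cttgaagaggtagacgctttggaagaaagg
Tpmt probe 2, chr13:47124252-47124311: ctgagaaaagagtttcagtaccttgtggct
Apol7a, on the minus strand of chromosome 15, and Pla2g1b, on the plus strand of chromosome 5, each have 1 kept probe, and their other probes were above background on 0 of the 14 arrays.
Apol7a probe 3, chr15:77223805-77223864: actttgtggcagaagttgatttgtccaggt
Pla2g1b probe 1, chr5:115921797-115921853: aggcgggggccaccacacctggaaaaagta

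The 10 genes were dim. Of the 140 values of their representing probes, 121 were well above background and 19 were not, and only Tpmt, Ppp1r35 and Tbata were well above background on all 14 arrays. Without Tbata, signals lay between 4.2 and 153 intensity units with a median of 20.2, while Tbata reached 668. Several genes passed the filter through some groups alone. Mansc1 passed through both Ts1Cje groups only, Apol7a through both WT groups only, and Nabp1 through the Ts1Cje EDL only. Rab32 and Dppa5a missed it in the WT EDL, Atp6v1e2 in the Ts1Cje EDL, and Pla2g1b in the Ts1Cje soleus. A gene near background may pass only through groups where it is high, so the number that passed says nothing about the genes.

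**Figure D1:**
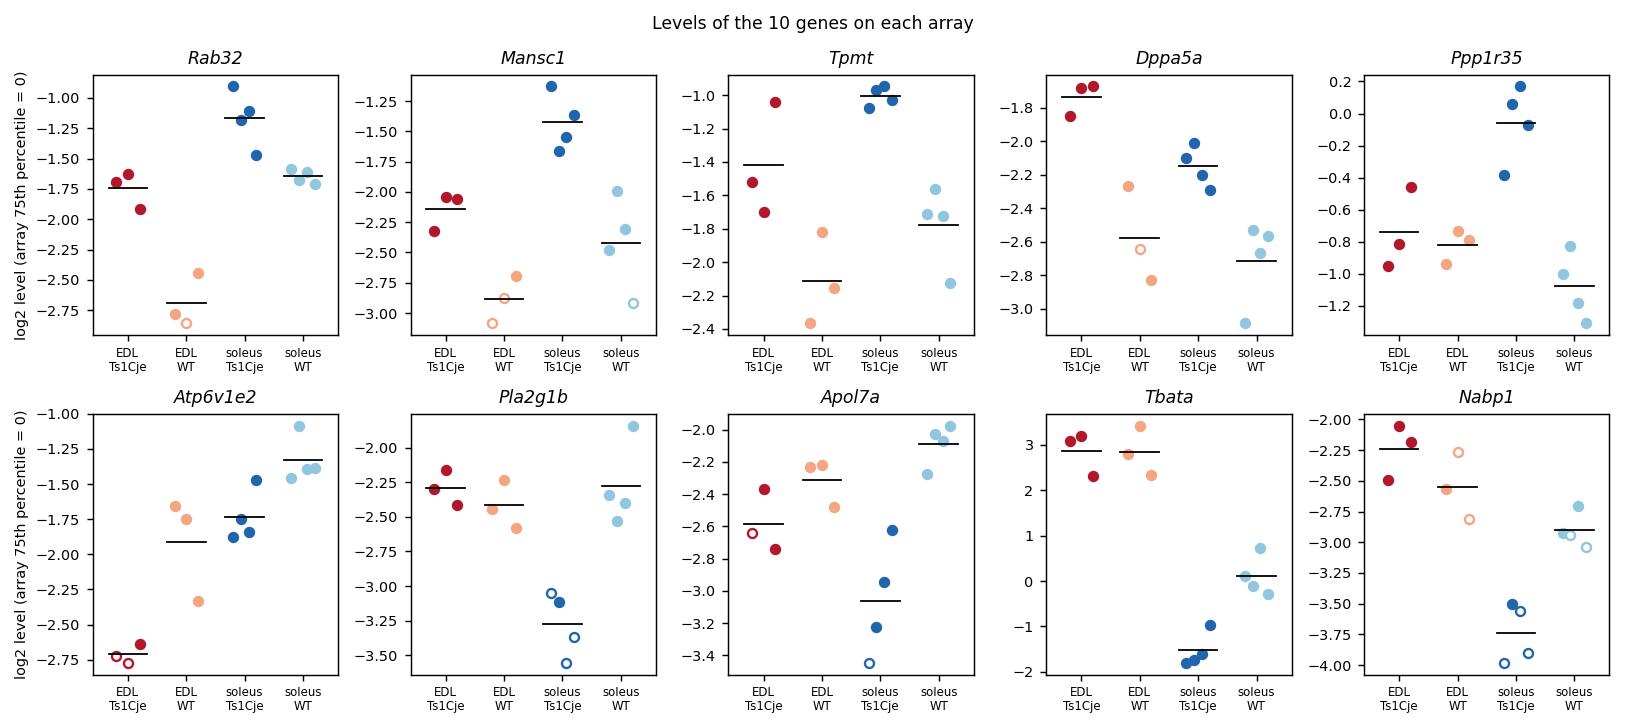
Log2 level of each of the 10 genes (y axis, 0 is the 75th percentile of the array) on each of the 14 arrays, in the Ts1Cje EDL, WT EDL, Ts1Cje soleus and WT soleus (x axis). Each point is an array, open points were not well above background, and lines are group means. In the soleus the Ts1Cje and WT points do not overlap for any gene, and Tbata alone has every EDL point above every soleus point.

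In the soleus the Ts1Cje and WT arrays did not overlap for 10 of the 10 genes, 5 higher and 5 lower in Ts1Cje, where 8.39% of all genes did not overlap (6.11% higher and 2.29% lower). In the EDL 4 genes were higher without overlap, 1 was lower without overlap and 5 overlapped, against 5.6% of all genes without overlap (2.83% higher and 2.77% lower). Both counts follow from how the genes were picked and are given as a description. Rab32, Mansc1, Tpmt and Dppa5a were higher and Atp6v1e2 lower in Ts1Cje in both muscles. For Ppp1r35, Pla2g1b, Apol7a, Tbata and Nabp1 the groups were separate in the soleus and overlapped in the EDL, and the difference between the muscles carries no test here. Of these 5, 3 had 1 sign in all 3 EDL pairs of the same number. Ts1Cje minus WT in pairs 1, 2 and 3 was -0.41, -0.15 and -0.26 for Apol7a, 0.14, 0.07 and 0.17 for Pla2g1b, and 0.08, 0.21 and 0.63 for Nabp1. The EDL pairs of Ppp1r35 and Tbata had mixed signs.

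Rab32 and Atp6v1e2 belong to the vesicle and organelle genes. Rab32 is a small GTPase that directs traffic to lysosome-related organelles and also sits at mitochondria. Its probe lies at chr10:10265134-10265193 (mm9, minus strand). Rab32 stood at -1.69, -1.63 and -1.91 in the Ts1Cje EDL, against -2.78, -2.86 and -2.44 in the WT EDL. In the soleus, Rab32 stood at -0.91, -1.18, -1.10 and -1.47 in Ts1Cje, against -1.59, -1.67, -1.61 and -1.71 in WT. All Ts1Cje arrays were above all WT arrays within each muscle, and WT EDL replicate 2 was not well above background. The differences were 0.95 ± 0.15 in the EDL and 0.48 ± 0.13 in the soleus (SE).

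Atp6v1e2 encodes the E subunit isoform of the vacuolar proton pump that is known from testis, and its probe lies at chr17:87343487-87343546 (mm9, minus strand). Atp6v1e2 stood at -2.73, -2.77 and -2.64 in the Ts1Cje EDL, against -1.66, -1.75 and -2.33 in the WT EDL. Its soleus levels were -1.88, -1.75, -1.84 and -1.47 in Ts1Cje and -1.46, -1.08, -1.39 and -1.39 in WT. The groups were separate in both muscles, narrowly in the soleus, and 1 of 3 Ts1Cje EDL arrays was well above background. Ts1Cje minus WT was -0.80 ± 0.17 in the EDL and -0.40 ± 0.15 in the soleus (SE). Among the other 20 measured subunits of the pump, 7 were higher in the Ts1Cje EDL and 13 in the Ts1Cje soleus, with medians of -0.02 and 0.05 where all genes had 0.00 and 0.07.

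Tpmt and Pla2g1b are enzymes. Tpmt is thiopurine S-methyltransferase, which methylates and inactivates thiopurine drugs. Its 1st probe stood at -1.52, -1.70 and -1.04 in the Ts1Cje EDL, against -2.37, -1.82 and -2.15 in the WT EDL. In the soleus it stood at -1.08, -0.97, -0.95 and -1.03 in Ts1Cje, against -1.71, -1.56, -1.72 and -2.12 in WT. The 4 Ts1Cje soleus arrays lay close together, and the groups were separate in both muscles. The 1st probe differed by 0.69 ± 0.19 in the EDL and by 0.77 ± 0.16 in the soleus (SE). The 2nd probe of Tpmt, well above background on all 14 arrays too, gave 0.28 and 0.12, and its groups overlapped in the soleus. With the mean of both probes the difference was 0.47 over the muscles, against 0.73 for the 1st probe alone.

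Pla2g1b is the secreted phospholipase A2 that the pancreas releases to digest lipids. Its kept probe stood at -3.05, -3.11, -3.55 and -3.37 in the Ts1Cje soleus, against -2.34, -2.53, -2.40 and -1.84 in the WT soleus. In the EDL it stood at -2.30, -2.16 and -2.41 in Ts1Cje, against -2.44, -2.23 and -2.58 in WT. The Ts1Cje soleus was the low group, with 1 of 4 arrays well above background, and the 2 EDL groups overlapped. Pla2g1b differed by -1.0 ± 0.16 in the soleus and by 0.13 ± 0.18 in the EDL (SE). The other probe of Pla2g1b was above background on 0 of 14 arrays, and the position given for the kept probe spans 57 bases where the probe has 60. Of 10 pancreatic acinar markers on the array, 7 were above background on no array. The 2 that were kept, Ctrb1 and Clps, were above background on all 14 arrays.

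Apol7a is 1 of a family of mouse apolipoprotein L genes that lie close together and are alike in sequence, so its signal cannot be assigned to it with certainty. Apol7a stood at -3.44, -3.23, -2.94 and -2.62 in the Ts1Cje soleus, against -2.27, -2.03, -2.07 and -1.98 in the WT soleus. EDL levels of Apol7a were -2.64, -2.37 and -2.74 in Ts1Cje and -2.23, -2.22 and -2.48 in WT. All Ts1Cje soleus arrays were below all WT soleus arrays, and the EDL groups overlapped. Its level differed by -0.97 ± 0.16 in the soleus and by -0.27 ± 0.19 in the EDL (SE). Its 2 other probes, at chr15:77218745-77218804 and chr15:77219467-77219526, gave 0.03 and -0.22 in the soleus and were not above background on any array. Of the other 6 measured genes of the family, 4 were higher in the Ts1Cje soleus, with a median of 0.17.

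Nabp1 and Ppp1r35 act on DNA and on the centrosome. Nabp1 encodes a single-stranded DNA binding protein of the SOSS complex, which senses DNA breaks, and its probe lies at chr1:51527317-51527376 (mm9, minus strand). Nabp1 stood at -3.98, -3.50, -3.56 and -3.90 in the Ts1Cje soleus, against -2.92, -2.94, -2.71 and -3.04 in the WT soleus. In the EDL, Nabp1 stood at -2.49, -2.05 and -2.18 in Ts1Cje, against -2.57, -2.27 and -2.81 in WT. It was the dimmest of the genes, well above background on 7 of 14 arrays, of which 3 were Ts1Cje EDL, 1 WT EDL, 1 Ts1Cje soleus and 2 WT soleus arrays. Ts1Cje minus WT was -0.83 ± 0.15 in the soleus and 0.31 ± 0.18 in the EDL (SE), with opposite signs in the muscles.

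Ppp1r35 is a partner of protein phosphatase 1 that is needed for centrioles to mature into centrosomes, and its probe lies at chr5:138221222-138221281 (mm9, plus strand). Ppp1r35 stood at -0.38, 0.06, 0.17 and -0.07 in the Ts1Cje soleus, against -1.0, -0.82, -1.18 and -1.31 in the WT soleus. In the EDL, Ppp1r35 stood at -0.95, -0.82 and -0.46 in Ts1Cje, against -0.94, -0.73 and -0.79 in WT. The Ts1Cje soleus was the high group and the other 3 groups overlapped. Ts1Cje minus WT was 1.02 ± 0.15 in the soleus, a 2.03-fold higher level, and 0.08 ± 0.17 in the EDL (SE). In the EDL 1 of 3 pairs was higher in Ts1Cje, and without Ts1Cje replicate 3 the value was -0.06.

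Dppa5a and Mansc1 were higher in Ts1Cje in both muscles. Dppa5a encodes an RNA binding protein of pluripotent cells that has related copies in the genome, so its probe, at chr9:78214866-78214925 (mm9, minus strand), may read them too. Dppa5a stood at -1.85, -1.68 and -1.67 in the Ts1Cje EDL, against -2.27, -2.64 and -2.83 in the WT EDL. In the soleus, Dppa5a stood at -2.10, -2.01, -2.20 and -2.29 in Ts1Cje, against -3.09, -2.53, -2.67 and -2.57 in WT. The groups were separate in both muscles, by 0.84 ± 0.17 in the EDL and 0.56 ± 0.14 in the soleus (SE). Among 16 pluripotency and germ cell genes on the array, itself included, 7 were above background on no array, Pou5f1 and Sox2 among them, while Nanog, Klf4, Tdgf1, Esrrb, Utf1 and Lin28a were above background on all 14. Of the 7 others measured, 2 were higher in Ts1Cje in each muscle.

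Mansc1 encodes a membrane protein with a MANSC domain, and its probe lies at chr6:134559344-134559403 (mm9, minus strand). Mansc1 stood at -2.32, -2.04 and -2.05 in the Ts1Cje EDL, against -3.09, -2.88 and -2.69 in the WT EDL. In the soleus, Mansc1 stood at -1.13, -1.66, -1.55 and -1.36 in Ts1Cje, against -2.48, -1.99, -2.31 and -2.92 in WT. All Ts1Cje arrays were above all WT arrays within each muscle, and 1 of 3 WT EDL and 3 of 4 WT soleus arrays were well above background. Mansc1 was higher by 0.75 ± 0.21 in the EDL and by 1.0 ± 0.18 in the soleus (SE).

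Tbata, also called Spatial, is known from thymic epithelium, brain and testis. Its 1st probe stood at -1.80, -1.74, -1.61 and -0.97 in the Ts1Cje soleus, against 0.12, -0.11, 0.72 and -0.28 in the WT soleus. In the EDL it stood at 3.09, 3.20 and 2.31 in Ts1Cje, against 2.80, 3.42 and 2.32 in WT. The EDL groups overlapped almost entirely, and the Ts1Cje soleus was below the WT soleus on all arrays. For this probe, Ts1Cje minus WT was -1.64 ± 0.29 in the soleus, a 3.12-fold lower level, and 0.01 ± 0.34 in the EDL (SE). The EDL value changed sign when single arrays were left out, between -0.25 and 0.30.

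The 3 kept probes of Tbata disagreed. Probe 2 stood between -1.45 and -0.81 in the Ts1Cje soleus and between -1.13 and -0.72 in the WT soleus, and Ts1Cje minus WT was -0.19 there. Probe 5 stood between -1.05 and -0.21 in the Ts1Cje soleus and between -0.76 and -0.21 in the WT soleus, with a difference of -0.24. Both overlapped between the genotypes, so the lower level was seen with probe 1 alone. With the mean of the 3 probes the soleus difference was -0.69. The other 2 probes were at background, apart from WT soleus replicate 4, where probe 4 reached -2.23. The deposited descriptions give transcript variant 3 for both probe 1 and probe 3, and probe 3 was above background on 0 of 14 arrays. What probe 1 reads was not checked, so its signal cannot be assigned to Tbata with certainty. Of 12 thymic epithelium and testis genes on the array, itself included, 6 were above background on no array, among them Foxn1, the regulator of thymic epithelium. Ccl25, a chemokine of thymic epithelium, and Prm2, a sperm protamine, were above background on all 14 arrays, and Ccl25 was higher in the EDL than in the soleus by 1.40 (limma adjusted p = 1.3e-06).

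**Figure D2:**
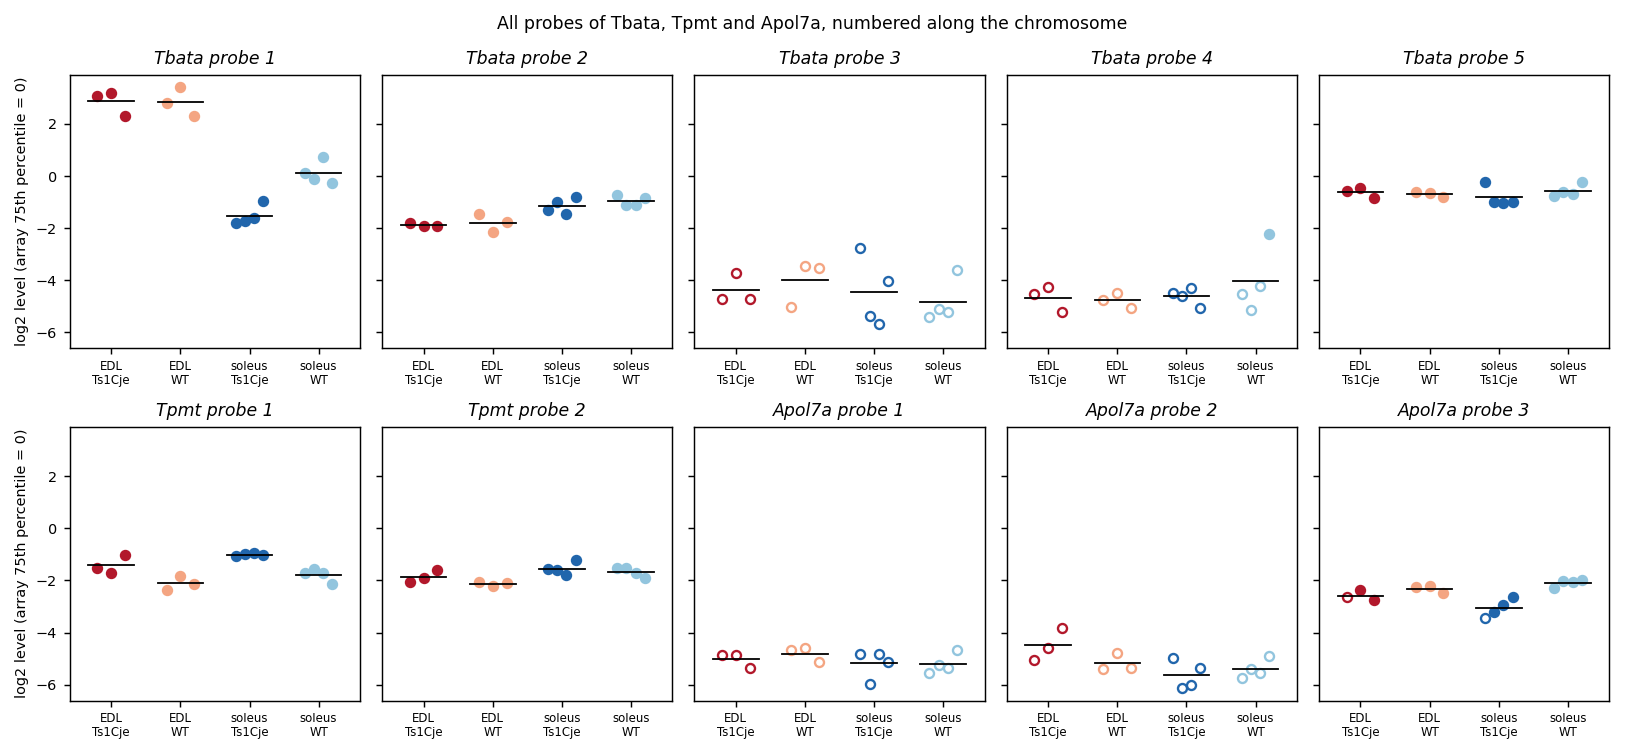
Log2 level of each probe of Tbata, Tpmt and Apol7a (y axis, 0 is the 75th percentile of the array) on each array of the 4 groups (x axis), with probes numbered along the chromosome. Each point is an array, open points were not well above background, and lines are group means. Tbata probe 1 alone separates the EDL from the soleus widely, and Apol7a probes 1 and 2 have only open points.

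Fast fibre markers moved in the soleus beside Tbata, Nabp1 and Pla2g1b. Of 9 markers, 8 were lower in the Ts1Cje soleus than in the WT soleus, and the median of the 9 was -0.15. Of the 8, 3 passed limma's adjusted threshold, where 0.247% of all genes passed and 0.0706% were lower. The 3 were Myh4 at -4.12, Actn3, an actin crosslinker of fast fibres, at -1.95, and Pvalb, their calcium buffer, at -1.86. In the EDL, Ts1Cje minus WT was 0.03 for Myh4, 0.18 for Actn3 and 0.03 for Pvalb. The summed level of the 9, in multiples of the 75th percentile, lay between 6179 and 7998 in the Ts1Cje soleus and between 7479 and 8769 in the WT soleus, with medians of 6445 and 8027. All 9 slow markers were higher in the Ts1Cje soleus, with a median of 0.22, and 0 passed in limma, also at an unadjusted p under 0.05. In the EDL 8 of the 9 slow markers were lower in Ts1Cje, with a median of -0.67, and again 0 passed, also at an unadjusted p under 0.05. Of 55 marker genes from 8 lists of other cells, 0 passed in limma in the soleus. Ts1Cje minus WT medians there were 0.65 for adipocyte and 0.45 for red blood cell markers, and -0.29 for neutrophil and -0.05 for endothelial markers. In muscle tissue, fewer fibres of a type and less RNA per fibre cannot be told apart. The part of fibre markers and of other cell markers in the values of these genes was not tested.

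The 2 genes with the most similar pattern to each of the 10 were found by Pearson correlation over the 14 arrays, each muscle centred on its mean. These correlations describe arrays that share the genotype groups and have no test. Pvalb was nearest to Tbata (r = 0.95), followed by Kcnc4, a potassium channel subunit (0.91), and Pvalb also stood second for Nabp1 (0.88) after Tlcd4 (0.90). Myh4 stood second for Pla2g1b (0.87) after Olfr1221, an odorant receptor gene (0.90). Genes of the triplicated segment were nearest to 3 others: Dyrk1a, a kinase, to Tpmt (0.95), Runx1, a transcription factor, to Mansc1 (0.94), and Pigp, of GPI anchor synthesis, to Dppa5a (0.90). With Cryzl1, the second for Tpmt (0.94), they made 4 of the 20 places, where 0.459% of all genes lie in the segment. Tpmt, Mansc1 and Dppa5a were chosen for a genotype difference and were higher in Ts1Cje, as the listed segment genes were. Such places follow from that choice and are given as a description. The other nearest genes were Wdr91 for Rab32 (0.90), Casp9, the initiator caspase, for Ppp1r35 (0.94), Gm9734 for Atp6v1e2 (0.88) and 4930517J16Rik for Apol7a (0.89).

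The choice itself can be read from the ranks. In the mean of both muscles, Rab32, Dppa5a, Mansc1 and Tpmt ranked 2, 4, 5 and 9 by p among the 14103 disomic genes, and Atp6v1e2 ranked 16. Ppp1r35, Pla2g1b, Apol7a, Tbata and Nabp1 ranked 5, 7, 9, 12 and 14 in the soleus, while Nabp1 ranked 1110 in the mean. Of the genes not chosen, Dnah11, a dynein heavy chain gene, ranked 1 in the mean with a difference of 8.97. It lies on chromosome 12, which holds the joining place, and only segment genes on chromosome 16 were left out of the disomic count. Gm34566, on chromosome 16 outside the segment, ranked 3 with a difference of -0.55, and Srgap1 ranked 6 with 0.54. Beside them Dppa5a, at rank 4, had 0.70 and Mansc1, at rank 5, had 0.87, so genes left out and genes chosen stand next to each other. In the mean, 0.289% of all genes passed limma's adjusted threshold.

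**Figure D3:**
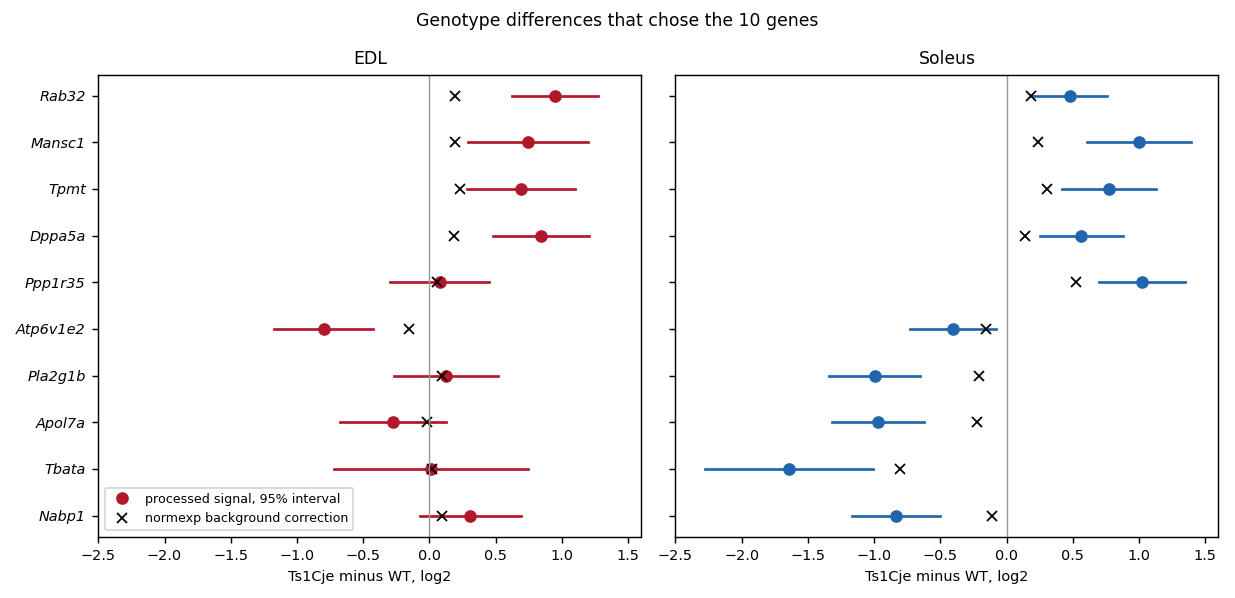
Ts1Cje minus WT (x axis, log2) for each of the 10 genes (y axis) in the EDL and the soleus. Circles are values from the processed signal with 95% intervals from limma, over 3 arrays per genotype in the EDL and 4 in the soleus, and crosses are values with normexp background correction. All soleus crosses lie nearer to 0 than their circles, with the same sign.

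Most genotype differences of the 10 genes shrank under another background correction. Normexp with an offset of 50 intensity units, more than the median signal of 20.2, gave 0.19 for Rab32, 0.24 for Mansc1, 0.31 for Tpmt, 0.14 for Dppa5a and 0.53 for Ppp1r35 in the soleus. It gave -0.15 for Atp6v1e2, -0.21 for Pla2g1b, -0.23 for Apol7a, -0.81 for Tbata and -0.11 for Nabp1 there. In the EDL it gave 0.19 for Rab32, 0.19 for Mansc1, 0.23 for Tpmt, 0.19 for Dppa5a and -0.16 for Atp6v1e2. The EDL values of the other genes shrank too, apart from Tbata, at 0.02 against 0.01. The signs held for all 10 genes in both muscles.

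The muscle comparison was not used to pick the genes and could be tested, with a limit. Its p-values use the same residual spread as the genotype p-values that chose the genes. That choice favours genes of small spread, so the muscle p-values may be too small. Averaged over the genotypes, 7 of 10 genes differed between EDL and soleus at an adjusted p under 0.05, where 46.5% of all genes did so. Of the 7, 3 were higher in the EDL (27.7% of all genes) and 4 were lower (18.8% of all genes). The 7 include Nabp1, which passed the background filter through the Ts1Cje EDL alone, so the filter bears on its direction and its value is given as a description with no test. Without it 6 genes passed, and nothing particular to the 10 genes is read from either count.

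Tbata was higher in the EDL than in the soleus by 3.56 ± 0.22 (SE), an 11.8-fold higher level (limma adjusted p = 1.05e-07). Every EDL array, from 2.31 up, lay above every soleus array, from 0.72 down, which held for 20.3% of all genes in either direction. This rests on probe 1: the differences were -0.79 for probe 2 and 0.03 for probe 5, and the mean of the 3 probes gave 0.93. Pla2g1b was higher in the EDL by 0.42 ± 0.12 (limma adjusted p = 0.0122). For Nabp1 the EDL minus soleus value was 0.92 ± 0.12 (SE), with 4 of 6 EDL arrays and 3 of 8 soleus arrays well above background. For Pla2g1b the 2 WT groups were at -2.42 in the EDL and -2.28 in the soleus and overlapped, and only the Ts1Cje soleus stood apart, at -3.27.

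Rab32 was lower in the EDL than in the soleus, with a difference of -0.81 ± 0.10 (SE, limma adjusted p = 2.67e-05). Atp6v1e2 was at -0.78 ± 0.11 (limma adjusted p = 0.00013) and Mansc1 at -0.59 ± 0.14 (limma adjusted p = 0.00399). Tpmt was at -0.37 ± 0.12, near the threshold (limma adjusted p = 0.0259). Dppa5a at 0.27, Ppp1r35 at -0.21 and Apol7a at 0.12 did not pass (limma adjusted p = 0.057, 0.145 and 0.422), which does not show that the muscles are alike in them. Their 95% intervals ran from 0.04 to 0.51, from -0.46 to 0.03 and from -0.14 to 0.39.

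With slide as a block, the estimate rests on the lone soleus array that shared a slide with the EDL. There 4 of the 7 passed, Nabp1 among them, where 2279 of all 14168 genes passed. The other 3 were Tbata at 3.88, Rab32 at -1.12 and Mansc1 at -0.93 (limma adjusted p = 0.000434, 0.00294 and 0.0439), while Atp6v1e2, Tpmt and Pla2g1b were at -0.61, -0.29 and 0.16 (limma adjusted p = 0.113, 0.505 and 0.705). With normexp 2 passed, Tbata at 2.50 and Nabp1, where 4844 of all genes passed. Nabp1 had 1.21 with slide as a block and 0.32 with normexp, again as a description. Markers of other cells were read too: 55 genes from 8 lists of blood, fat, nerve, vessel, connective tissue and satellite cells. Of these, 4 passed as higher and 19 as lower in the EDL, where 27.7% and 18.8% of all genes did so. The 19 include all 7 adipocyte markers. The part of these 55 genes in the values above was not tested.

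**Figure D4:**
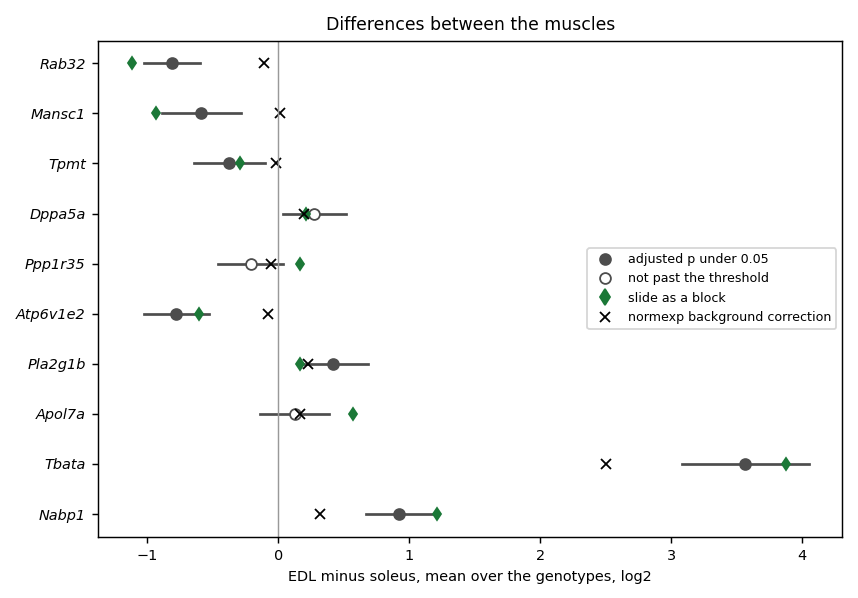
EDL minus soleus averaged over the genotypes (x axis, log2) for each of the 10 genes (y axis), from 6 EDL and 8 soleus arrays. Circles with 95% intervals are limma estimates, filled where the adjusted p was under 0.05 (for Nabp1 a description only, given how it passed the filter), diamonds are values with slide as a block, and crosses are values with normexp background correction. Tbata, at 3.56, lies far to the right of the other 9.

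The order of the 4 group means differed from gene to gene. For Rab32 the Ts1Cje soleus was highest at -1.16 and the WT EDL lowest at -2.69, and the Ts1Cje EDL at -1.75 and the WT soleus at -1.65 overlapped between them. For Atp6v1e2 the Ts1Cje EDL was lowest at -2.71 and the WT soleus highest at -1.33, while the Ts1Cje soleus at -1.73 and the WT EDL at -1.91 overlapped. For Tbata the Ts1Cje EDL at 2.86 and the WT EDL at 2.85 overlapped, and below them the Ts1Cje soleus at -1.53 and the WT soleus at 0.11 stood apart from each other and from the EDL.

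Genes related to the 10 by function did not pass in the genotype comparisons. The lists, of vesicle traffic, proton pump, purine, phospholipase, apolipoprotein L, DNA binding, phosphatase, pluripotency, MANSC domain and thymus genes, held 97 other measured genes. None passed limma's adjusted threshold in the EDL or in the soleus, where 0.00706% and 0.247% of all genes did. At an unadjusted p under 0.05 there were 3 in the EDL and 11 in the soleus, shares of 3.09% and 11.3% where all genes had 2.89% and 13.6%. Between the muscles 37 passed, 24 higher and 13 lower in the EDL, which is 38.1% where 46.5% of all genes passed (27.7% higher and 18.8% lower). Among them Atp6v0a1, a membrane subunit of the proton pump, was higher in the EDL by 1.07 (limma adjusted p = 7.53e-08), and Nabp2, the paralogue of Nabp1, by 0.65 (limma adjusted p = 3.29e-05). Of the 5 other phospholipase genes 1 was higher in the EDL and the median was -0.24: Pla2g12a was lower, at -1.67 (limma adjusted p = 1.64e-07), and Pla2g5 higher, at 2.22 (limma adjusted p = 0.00119). In the apolipoprotein L list Apol6 was lower, at -2.51 (limma adjusted p = 0.000103).

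The 10 genes lie on 8 chromosomes. Within 1 Mb of them (mm9) lie 202 other measured genes, of which none passed limma's threshold in the EDL and 1 passed in the soleus, Pvalb near Apol7a, a share of 0.495% where 0.247% of all genes passed. At an unadjusted p under 0.05 there were 9 in the EDL (4.46%, against 2.89% of all genes) and 33 in the soleus (16.3%, against 13.6%). The medians of these neighbours were 0.00 in the EDL and 0.08 in the soleus, where all genes had 0.00 and 0.07.

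The promoter is shown for Tbata, the gene with the largest soleus difference. Of the 10 genes, 8 have an entry of 300 bases (250 before and 50 after the start, GRCm38.p6). Capitals mark CANNTG, the E-box core that muscle regulatory factors are known to bind, which reads the same pattern on both strands.
Tbata, chr10:61171714-61172013, plus strand: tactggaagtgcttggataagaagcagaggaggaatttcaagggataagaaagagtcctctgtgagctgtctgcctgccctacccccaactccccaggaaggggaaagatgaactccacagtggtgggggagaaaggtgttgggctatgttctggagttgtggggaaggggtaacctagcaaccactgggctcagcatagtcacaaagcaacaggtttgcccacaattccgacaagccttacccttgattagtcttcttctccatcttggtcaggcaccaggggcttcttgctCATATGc
CANNTG occurs once in it, and 72.3% of all 32851 promoters of that length hold it. CG occurs 1 time in the Tbata promoter, where the quartiles of all promoters are 3 and 20. TATAAA, in either strand, is not in this window, and 13.6% of all promoters hold it. A match is a description of the letters only.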

How the data were processed

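The authors hybridised Cy3-labelled cRNA to 14 arrays of 1 colour and deposited the scanner output. The file headers name Agilent Feature Extraction 11.5.1.1, while the submitters' processing notes name 9.1. The deposited intensity values used are the processed signal, background subtracted and not normalized between arrays, per the file headers. The authors' deposited table holds log2 values, scaled by the 75th percentile and centred for every probe, and correlated with the scanner values treated alike at 0.9999 or above. Probe positions are those of mm9.

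Of 62976 spots per array, 3671 controls were left out, and averaging spots gave 55681 probes. Levels are log2 intensity minus the array's log2 75th percentile. Probes were kept where every array of some group was well above background, which left 25190. For each of the 14168 genes, the kept probe of highest mean was used. RefSeq tables (GRCm38.p6) matched 31813 of 33822 probes with a symbol. No probe was saturated.

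In limma 3.58.1 (R 4.3.3) all 14 arrays entered a model of the 4 group means, with 10 residual degrees of freedom, two-sided tests, Benjamini-Hochberg adjustment over 14168 genes and a threshold of 0.05. The 10 genes and all gene lists were chosen with earlier results of these data known. Because genotype p-values chose the genes, EDL minus soleus is the one contrast tested for them. The fit was tested on simulated data. No label says that every array is a separate animal, so p-values measure the spread between these arrays, which may be technical in part.

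Besides the 10 genes, the text names for each the 2 genes of most similar pattern, the 3 disomic genes outside the choice with smallest p in the mean of the muscles, Sod1, Dnah11, up to 2 called genes per related list and comparison, and 4 fibre genes. Foxn1, Prm2, Pou5f1, Sox2, Nanog, Klf4, Tdgf1, Utf1, Lin28a, Ctrb1 and Clps were named after their values were seen, as was Pvalb among the neighbours.

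The design text speaks of littermate pairs. Same-numbered Ts1Cje and WT arrays deviated together in the EDL (correlations 0.40, 0.12 and 0.31). These correlations cannot show that the numbers mark littermates, which was not tested. Alternatives were normexp (offset 50), quantile normalization, the authors' table, no filter, the mean of a gene's probes, array weights, a trended variance, replicate and slide blocks, slide 2 alone, each muscle alone, and each array left out. The number of arrays limits the precision.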

Additional observations from a re-analysis of the deposited data

Results flagged for a closer look

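Pla2g1b and Nabp1 drew attention because their genotype differences ran in opposite directions in the 2 muscles. For Pla2g1b every Ts1Cje EDL array lay above the WT EDL mean and every Ts1Cje soleus array below the WT soleus mean, and the EDL difference minus the soleus difference was 1.12. For Nabp1 the same held, with 1.14. Ts1Cje EDL replicate 3 of Pla2g1b was barely above, at -2.412 against a WT EDL mean of -2.417. The difference between the muscles was not tested, since the genes were chosen on the genotype values. In the EDL the genotypes overlapped for both genes, and 1 of 4 Ts1Cje soleus arrays was well above background for each. No array lay far from the others of its group in the 20 soleus groups of 4 that were looked at.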

How the results depend on the processing

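Genotype differences of the 10 genes kept their signs under all settings tried, except in the EDL for Tbata without Ts1Cje replicate 1 or 2 or WT replicate 1 or 3, and for Ppp1r35 without Ts1Cje replicate 3. Several settings could not change them: a trended variance, the replicate block and each muscle alone. Nor could the slide block in the EDL, or leaving out an array of the other muscle. There the kept signs were fixed in advance. Without the filter the 10 genes had the same values. Within slide 2 the soleus differences lay between -1.55 for Tbata and 1.13 for Ppp1r35. Between the muscles 7 of the 10 passed, counting Nabp1, against 2 with normexp, 4 with slide as a block and 6 to 8 without single arrays. Of all 14168 genes, 6590 passed, against 4844, 2279 and 5808 to 6477 under the same settings. Mansc1 turned to 0.0135 with normexp and Ppp1r35 to 0.17 with slide as a block. Tpmt no longer passed with quantile normalization, without the filter, or without EDL Ts1Cje replicate 1 or 2 or EDL WT replicate 1 or 3 (limma adjusted p = 0.0506 to 0.107), nor did Pla2g1b with a trended variance (0.0569). Dppa5a passed with quantile normalization and without EDL WT replicate 3 or soleus WT replicate 2.

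Of all genes, 6590 passed between the muscles, and 2279 with slide as a block. In the EDL 1 gene passed, 2 with quantile normalization or no filter, 3 with a trended variance, and 1 to 3 without single arrays (3 without WT replicate 3, 2 without Ts1Cje replicate 3 or WT replicate 1 or 2). In the soleus 35 passed, 15 with normexp, 6 without the filter, 23 with the mean of a gene's probes, 18 with slide as a block, 1 within slide 2 and 4 with each muscle alone. Leaving out single arrays gave 10 to 38 there: 18, 11 and 12 without Ts1Cje replicates 1, 2 and 3, and 10, 16 and 17 without WT replicates 1, 3 and 4. In the mean of the muscles 41 passed, 22 with normexp, 21 without the filter, and 25 to 41 without single arrays (25 without EDL Ts1Cje replicate 3 or soleus WT replicate 1, 26 without soleus Ts1Cje replicate 3).

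With a replicate block 7 genes passed in the soleus and 5 in the mean of the muscles, and the 10 genes kept their muscle calls. Their genotype values cannot change under this block, since every pair is complete. Same-numbered soleus arrays did not deviate together (correlations -0.12, -0.29, 0.01 and -0.14), so whether the numbers mark pairs there is not known. The cause of these changes was not tested. Of 140 values of the 10 genes, 19 were not well above background, which limits what these genes can show.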
